A study of Mus musculus with 8 samples.

Results

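Flag-HoxB4 chromatin immunoprecipitation was described at 9 genes that mark monocytes and macrophages: Cd14, Itgam, Cd68, Mrc1, Marco, Msr1, Fcgr1, Ccr2 and Cx3cr1. Genes were taken by name, as probes of the promoter arrays whose annotation names them. The list of names was chosen with earlier results of these data known. Probes were found for 8 of the 9 genes, 181 probes in all, among 16624 genes with at least 1 window of 3 probes. Ccr2, a chemokine receptor, was not analysed here. The cells were blood progenitors made from the mouse embryonic stem (ES) cell line B6N-22UTR. Cells positive for c-Kit and CD41 were sorted after 6 days in embryoid bodies, grown on OP9 stromal cells and given a retrovirus for HoxB4 with a 3xFLAG tag, and c-Kit+ cells were collected by magnetic sorting at day 12 of coculture. HoxB4 is a homeobox transcription factor that drives expansion of blood stem and progenitor cells, and here it was overexpressed from a retrovirus rather than read at its own level. DNA pulled down with the Flag antibody (Flag-IP, labelled with Cy5) was hybridised against input DNA (Cy3) on 2 promoter arrays with different probes, so each probe was measured in 1 sample and there is no replicate and no test. Flag-IP from cells without the tag was not analysed here, and neither was the expression of these genes, so the labelled cell type could not be checked against its markers.

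Monocytes arise from myeloid progenitors and become macrophages in tissues, where they take up debris, microbes and lipoproteins. CD14 presents bacterial lipopolysaccharide to Toll-like receptor 4. CD68, the mannose receptor (Mrc1), MARCO and the class A scavenger receptor (Msr1) are uptake or lysosomal receptors, Fcgr1 encodes the high-affinity receptor for immunoglobulin G, Itgam encodes CD11b of the integrin Mac-1, and CCR2 and CX3CR1 are the chemokine receptors by which monocyte subsets are told apart. These genes are switched on along myeloid differentiation, downstream of factors such as PU.1 and C/EBP.

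Signal over input ran from Cd14 and Itgam at the upper end, through Fcgr1 and Cd68 and then Cx3cr1 and Mrc1, down to Marco and Msr1. The measure was the log2 ratio of Flag-IP to input, centred so that the median probe of each array is at 0, and taken as the median over 3 neighbouring probes (a window). The highest window was 1.98 at Cd14, 1.93 at Itgam (3.82-fold), 1.57 at Fcgr1 (2.97-fold), 1.45 at Cd68 (2.73-fold), 1.07 at both Cx3cr1 and Mrc1, 0.51 at Marco and 0.23 at Msr1. Of the 8 genes, 6 had a window at or above a log2 ratio of 1, where 41.8% of all genes did, and 0 reached 2, where 2.90% did. With another background correction (normexp) 4 of 8 reached 1, against 50.4% of all genes, a share no higher than that of all genes. The median highest window was 1.26 over the 8 genes and 0.89 over all genes. The order is loose: the SD of the 3 probes inside the highest window had a median of 0.59, more than the gap between any neighbours in it. Cd14 stood first by the value of a probe that was not well above background, and without such probes it read 1.84, below Itgam. With normexp it read 1.86, below Itgam (2.46) and Fcgr1 (1.91). Neighbouring windows often share their median probe, so that 7 of the 8 genes have tied highest windows, and a coordinate given for one is that of the first in genome order. The deposited error of a single probe, from the scanner software's error model, had a median of 0.24 on the log2 scale over the 181 probes. With 1 array per probe these errors do not include the spread between immunoprecipitations.

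**Figure D1:**
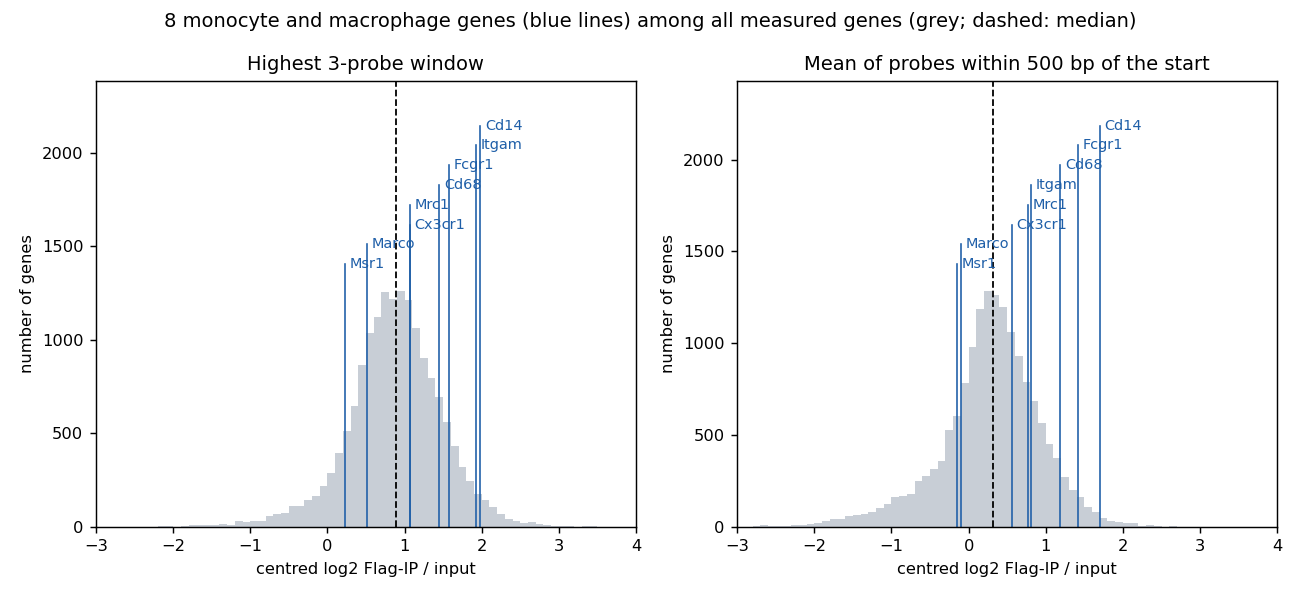
Number of genes (vertical axis) by centred log2 ratio of Flag-IP to input (horizontal axis), as the highest 3-probe window (left) and as the mean of probes within 500 bp of the gene start (right), with the 8 genes as blue lines and the median of all genes dashed; genes beyond the axis range are not shown. Cd14 stands at 1.98 and 1.70, and Msr1 at 0.23 and -0.15, below the medians of 0.89 and 0.32.

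The gene starts with the highest and the lowest signal can be compared by sequence. Promoters of 300 bases, from 250 before to 50 after the gene start, were taken from RefSeq on build GRCm38.p6. Entries matched 6 of the 8 measured genes (Cd68, Cx3cr1, Fcgr1, Itgam, Marco and Mrc1), and Cd14 and Msr1 are named only. This is under 80% of the genes, so a check of base composition or motifs over the list is void, and promoters are described singly. Shown are those of the 3 genes with the highest signal among the 6, and Marco, with the lowest. Capitals mark every match, on either strand, to 6 motifs. Homeobox factors bind the core TAAT, and HOX with PBX proteins bind sites such as TGATNNAT. The ETS factors, PU.1 among them, recognise a core such as GAGGAA. C/EBP sites were searched as TTGCNNAA. The TATA box (TATAAA) and an IRF motif were the others. Matches of different motifs may overlap and then share a run of capitals.
Itgam, chr7:128062390-128062689, plus strand: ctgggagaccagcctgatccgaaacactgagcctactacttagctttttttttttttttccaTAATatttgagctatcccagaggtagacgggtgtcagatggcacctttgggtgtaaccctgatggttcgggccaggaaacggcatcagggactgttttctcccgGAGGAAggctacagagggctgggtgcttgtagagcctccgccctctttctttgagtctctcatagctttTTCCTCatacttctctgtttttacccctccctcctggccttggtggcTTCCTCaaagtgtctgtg
Fcgr1, chr3:96293920-96294219, minus strand: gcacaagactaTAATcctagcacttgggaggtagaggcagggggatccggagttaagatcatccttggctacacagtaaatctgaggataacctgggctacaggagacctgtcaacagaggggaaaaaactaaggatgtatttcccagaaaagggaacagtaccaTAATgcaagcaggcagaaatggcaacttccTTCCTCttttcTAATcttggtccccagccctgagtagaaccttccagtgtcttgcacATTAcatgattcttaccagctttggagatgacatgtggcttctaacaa
Cd68, chr11:69666121-69666420, minus strand: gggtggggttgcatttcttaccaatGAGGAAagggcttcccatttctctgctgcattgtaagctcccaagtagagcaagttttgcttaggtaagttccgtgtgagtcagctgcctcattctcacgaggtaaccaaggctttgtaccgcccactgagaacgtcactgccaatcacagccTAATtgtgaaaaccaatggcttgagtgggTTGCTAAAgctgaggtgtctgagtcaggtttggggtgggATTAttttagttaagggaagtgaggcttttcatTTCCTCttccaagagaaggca
Marco, chr1:120504975-120505274, minus strand: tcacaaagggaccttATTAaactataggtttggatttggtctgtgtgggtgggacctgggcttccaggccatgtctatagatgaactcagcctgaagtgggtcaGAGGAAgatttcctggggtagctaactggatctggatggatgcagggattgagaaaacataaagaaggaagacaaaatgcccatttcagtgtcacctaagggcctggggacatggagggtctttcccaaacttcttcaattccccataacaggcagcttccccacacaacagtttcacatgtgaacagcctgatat
Fcgr1 held 4 matches to TAAT, Cd68 held 2, and Itgam and Marco held 1 each, while 58.0% of 32851 RefSeq promoters of this length held at least 1. GAGGAA matched 3 times in Itgam, 2 times in Cd68 and 1 time each in Fcgr1 and Marco, against 28.3% of promoters with any. TTGCNNAA matched in Cd68 (10.8% of promoters), at -43 bp. None of these 4 promoters matched TGATNNAT, the IRF motif or TATAAA, which 8.85%, 3.44% and 13.6% of promoters held. The GC share was 50.3% in Itgam, 47.7% in Cd68, 47.3% in Marco and 46.0% in Fcgr1, below the median of 52.7%, and Marco held 0 CG dinucleotides against a median of 7. Marco and Fcgr1 thus both carry TAAT and GAGGAA, with highest windows of 0.51 and 1.57. Of the matched promoters not shown, that of Mrc1 held 0 matches to TAAT and 3 to GAGGAA. That of Cx3cr1 held 0 matches to any of the 6 motifs and had a GC share of 54.3%, above the median. Both genes had a highest window of 1.07. The array annotation gives positions to its own gene starts, in a build not given in the sources used here, so a match in these promoters was not placed under a probe.

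Cd14, the lipopolysaccharide co-receptor, had the longest run of high probes of the 8 genes. Its 27 probes lay on array 2, on chromosome 18. The 3 probes of the highest window read 1.98, 1.33 and 2.68, at -100, 40 and 159 bp from the gene start. Downstream the values stayed at 1.84 (350 bp), 1.76 (498 bp), 1.97 (750 bp), 1.52 (859 bp), 1.22 (1091 bp) and 1.63 (1238 bp), then fell to 0.98 at 1356 bp and -0.49 at 2515 bp. All 10 neighbouring probes from -236 to 1238 bp, a stretch of 1529 bp, were thus at or above 1. Among all genes 0.247% (41 of 16624) had a run of 10 or more such probes, a measure chosen after its values were seen. The run is 6 probes with normexp, a length that 3.53% of genes reach, and 8 probes with the brightness trend of the array removed, which 0.102% reach. Upstream, the 5 probes from -1805 to -1255 bp read between 0.01 and 0.88, and the 7 probes from -6000 to -2000 bp averaged -0.21. The probe at -100 bp was not well above background in both channels, and without such probes the highest window was 1.84, at 498 bp. The array annotates the upstream probes as a divergent promoter shared with Tmco6. The highest window of Tmco6, 1.58 at -8179 bp from its start, is made of these Cd14 probes, and its own start had a mean of 1.08 ± 0.60 (SD, n = 3 probes).

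Itgam, which encodes CD11b, had a narrower maximum inside the gene. On chromosome 7 (127854138 to 127854436, build not given), the probes at 313, 439 and 558 bp read 1.30, 2.56 and 1.93, and those at 144 and 696 bp read 1.29 and 1.16. These 5 neighbouring probes at or above 1 form a run that 4.95% of genes reach, though the run is 2 probes with the brightness trend removed. The flanks differed sharply: the probe at -244 bp read -1.51, that at 20 bp 0.42 and that at 840 bp 0.04. The probe at -244 bp was far brighter than the others, with an input intensity of 46428 where the other Itgam probes ranged from 499 to 2272. With it the mean within 500 bp of the start was 0.81 ± 1.51 (SD, n = 5 probes), at percentile 81.4, and the 4 probes from 0 to 500 bp averaged 1.39 ± 0.88 (SD). The highest window stood at percentile 96.3. Upstream signal was higher than at most genes, with a mean of 0.39 over 5 probes from -6000 to -2000 bp (percentile 89.7). The highest window was 2.46 with normexp, 1.34 with the brightness trend removed and 1.30 over 5 probes.

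Fcgr1, the high-affinity Fc receptor gene, showed the largest step from flank to start among the 6 genes with probes in both regions. The probes at -93, 23 and 145 bp read 1.67, 1.57 and 0.95, followed by 1.21 at 280 bp and 1.72 at 400 bp (highest window on chromosome 3, 96379200 to 96379494, build not given). A further pair of probes inside the gene, at 1071 and 1225 bp, read 1.45 and 1.52. In contrast 13 of its 14 probes upstream of -500 bp were below 0, down to -1.70, and the probe at -3913 bp (0.79) was the exception. The mean within 500 bp of the start was 1.42 ± 0.33 (SD, n = 5 probes; percentile 97.0) and the mean from -6000 to -2000 bp was -1.05 (11 probes; percentile 12.2). With the brightness trend removed the mean at the start was 0.98, and the lowest window was -1.47. With normexp the lowest window was -0.69 instead of -1.66, so the depth of the upstream trough depends on the background correction.

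**Figure D2:**
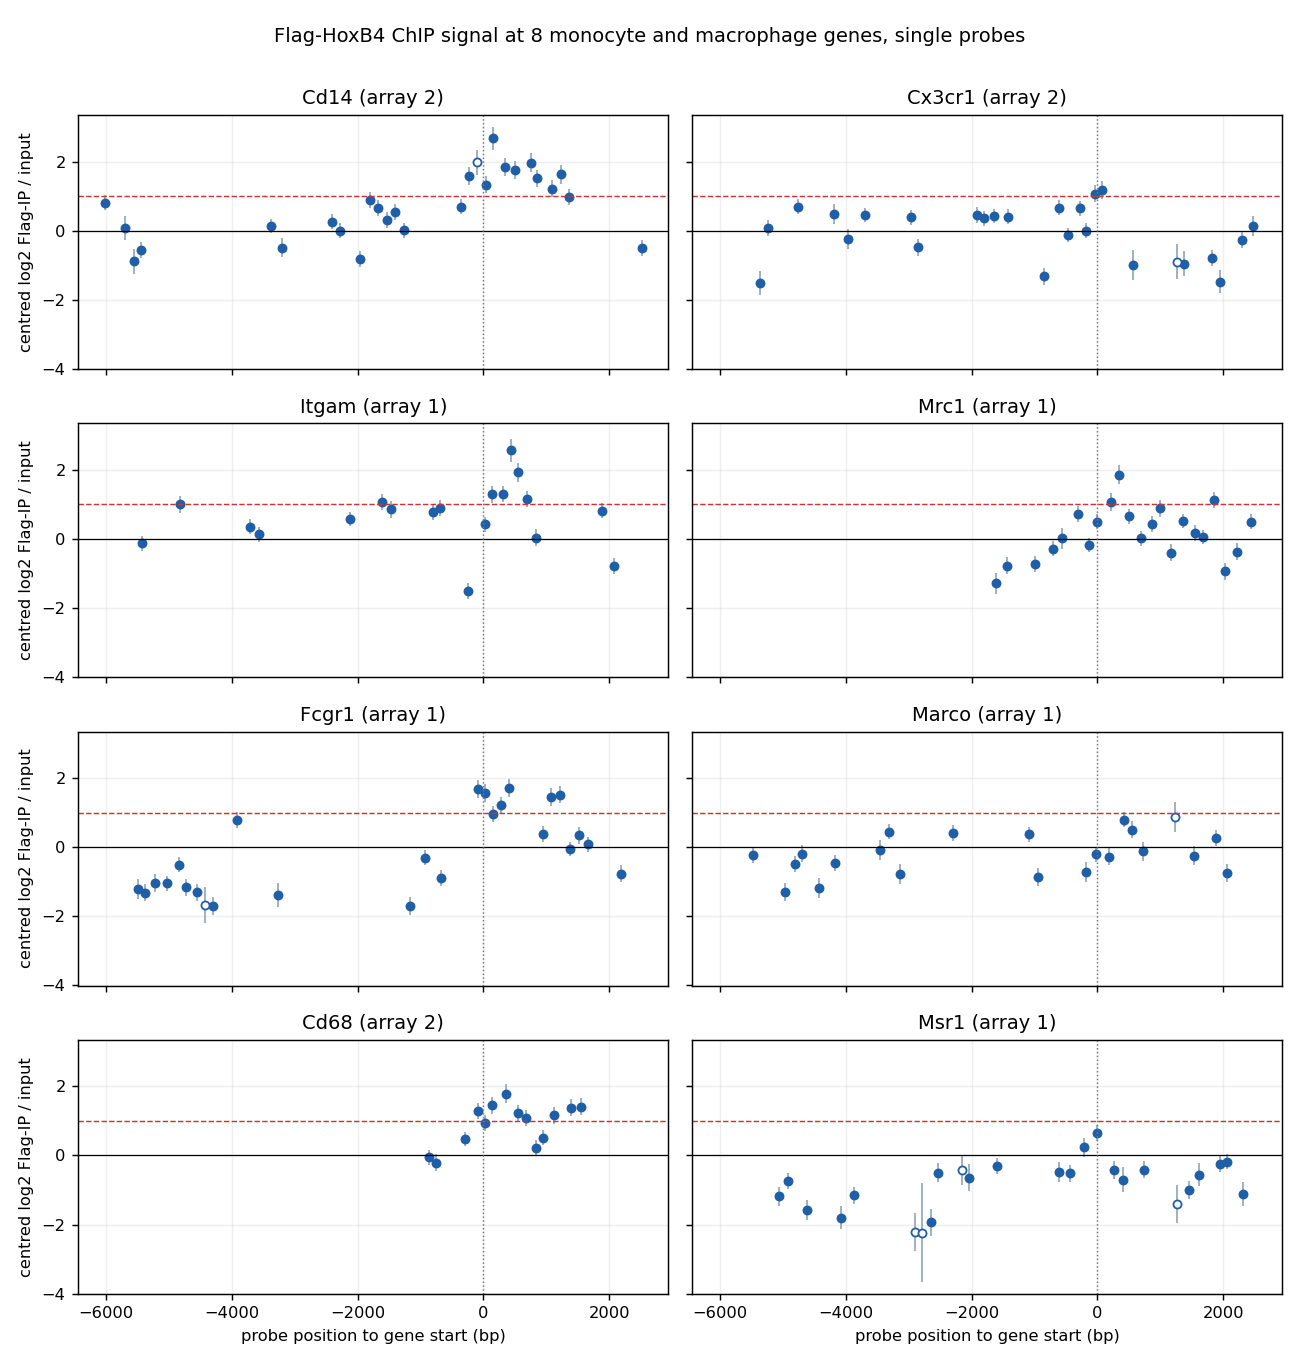
Centred log2 ratio of Flag-IP to input (vertical axis) for every probe of the 8 genes, by position to the gene start in bp (horizontal axis; dotted line at the start, dashed line at 1). Bars are the deposited error of each probe and open circles are probes not well above background in both channels; probes at or above 1 form a run of 10 at Cd14, 5 at Itgam and 4 at Cd68, while Marco and Msr1 have 0.

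Among the uptake receptors the 4 genes fell apart, with Cd68 high, Mrc1 intermediate and Marco and Msr1 low. Cd68, which encodes a heavily glycosylated lysosomal protein, had 14 probes. From the gene start inward they read 0.93, 1.45, 1.79, 1.23 and 1.08 between 30 and 680 bp, dipped to 0.22 at 834 bp and 0.51 at 954 bp, and rose again to 1.16, 1.38 and 1.41 between 1124 and 1548 bp. The probe at -91 bp read 1.28, and the 3 farther upstream read 0.48, -0.21 and -0.06. The highest window lay on chromosome 11 (69481683 to 69482147, build not given), and the mean within 500 bp of the start was 1.19 ± 0.50 (SD, n = 5 probes; percentile 93.4). A run of 4 or more probes at or above 1, as here, is found at 9.70% of genes, and it is 1 probe with the brightness trend removed. With the brightness trend removed the highest window was 0.98, at percentile 64.5, so Cd68 falls short of 1 there.

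Mrc1, the mannose receptor gene, had a peak of single probes just inside the gene. The probes at -2, 213, 349 and 500 bp read 0.50, 1.07, 1.86 and 0.65 (highest window on chromosome 2, 14147143 to 14147541, build not given). Upstream, the probe at -125 bp read -0.18, and beyond it values declined with distance, from 0.71 at -306 bp to -0.28 at -702 bp, -0.72 at -992 bp and -1.28 at -1614 bp, the farthest probe. The highest window was 0.73 with normexp, 0.71 over 5 probes and 1.26 with the brightness trend removed, so its side of 1 depends on the processing. The mean within 500 bp of the start was 0.77 ± 0.67 (SD, n = 6 probes; percentile 79.1).

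Marco, a scavenger receptor gene of macrophage subsets, had no probe at or above 1 among 22. Around its start the probes read -0.72 at -175 bp, -0.21 at -25 bp, -0.27 at 191 bp and 0.80 at 417 bp. The highest window of 0.51 is shared by 3 windows, centred at 417, 556 and 728 bp, the last of which holds a probe that was not well above background. Msr1, the class A scavenger receptor gene, was low along almost its whole tiled length, with 23 of 25 probes below 0. The 2 exceptions were 0.23 at -220 bp and 0.65 at -7 bp, next to the annotated start, so that even its highest window (chromosome 8, 41141208 to 41141745, build not given) was at percentile 11.7. From -5057 to -2649 bp the 8 probes read between -2.24 and -0.73, with the lowest window of the 8 genes at -2.21, though 2 of its 3 probes were not well above background. Over probes well above background the lowest window of Msr1 was -1.57, with the brightness trend removed -1.05, and with normexp -0.84. The array also lists an Ensembl transcript of Msr1 that starts farther downstream. The mean within 500 bp of the start was -0.10 ± 0.64 (SD, n = 4 probes) at Marco and -0.15 ± 0.57 (SD, n = 5 probes) at Msr1, and both means are above 0, at 0.11 and 0.36, with the brightness trend removed.

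Cx3cr1, the fractalkine receptor gene, had a pair of raised probes at the start and low values inside the gene. The probes at -37 and 66 bp read 1.07 and 1.19, and the next one, at 566 bp, read -0.99. These 3 make up a highest window of 1.07 (chromosome 9, 119916385 to 119917045, build not given), with an SD of 1.22 among its probes. The window centred at -37 bp has the same median and an SD of 0.66. As a mean of the 3 probes the highest window is 0.75, over 5 probes 0.65 and with normexp 0.64, and with the brightness trend removed it is 1.14. From 566 to 1946 bp the 5 probes read between -1.47 and -0.79. Upstream, 11 of 17 probes between -5360 and -173 bp were above 0, at 0.70 or less, so the flank on that side was not depleted as it was at Fcgr1.

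Position was what most of the 8 genes had in common. Counting a gene only if every tied highest window was centred at most 500 bp from the start gave 6 of 8 genes, against 32.4% of all genes, with Itgam and Marco outside. Counting it if any tied window was gave 8 of 8, against 39.1%. Both counts include Msr1, whose highest window was only 0.23. They also include Cd68 and Mrc1, which had no probes from -6000 to -2000 bp, so no window there could be the highest. The count by any tied window also includes Itgam, which had probes in that region but no window centred there. Ties were found at 7 of 8 genes, against 60.9% of all genes, and they can only raise that count. Every tied window was centred at or inside the start at 5 of 8 genes, against 50.7% of all genes, and any at 7 of 8, against 56.4%. The latter shares hang on ties at Fcgr1 and Cx3cr1, which have a highest window on each side of the start. In the first 500 bp of the gene the mean was 1.05 ± 0.80 (SD over 8 genes), from -0.57 at Msr1 to 1.90 at Cd14, and the mean of all probes there was 0.39. From -6000 to -4000 bp the mean over the 6 genes with probes was -0.54 ± 0.68 (SD), and that of all probes was -0.32. Within 500 bp of the start the mean was at or above 1 at 3 of 8 genes (Cd14, Fcgr1 and Cd68), against 11.5% of 16116 genes. With the brightness trend removed it was 1 of 8 (Cd14), against 4.6% of genes, and with normexp 4 of 8, Itgam included, against 17.2%. The median of these means was 0.79 over the 8 genes and 0.32 over all genes. The mean was above 0 at 6 of 8 genes, a share near the 73.4% of all genes. The start exceeded the region from -6000 to -2000 bp at 6 of the 6 genes with probes in both, as at 78.2% of all genes. The rise at gene starts is thus common on these arrays, and the 8 genes differ among themselves in its height.

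**Figure D3:**
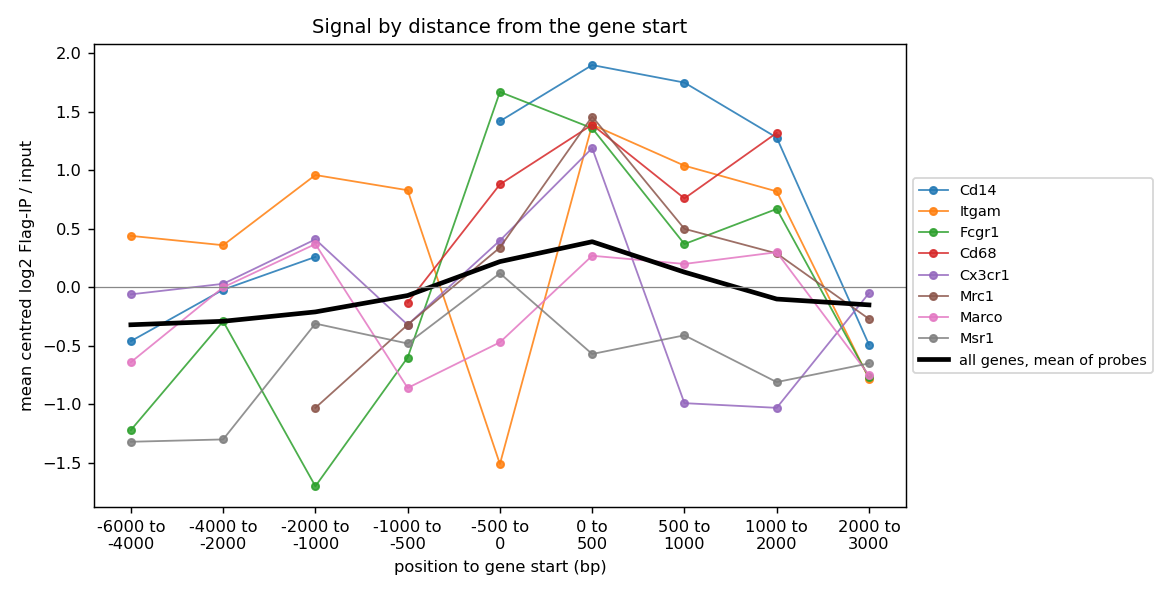
Mean centred log2 ratio of Flag-IP to input (vertical axis) of each of the 8 genes by distance to the gene start in bp (horizontal axis, unequal bins), with the mean of all probes in black. Bins without a probe are blank and several rest on 1 probe; in the first 500 bp Cd14 is at 1.90, Mrc1 at 1.46 and Msr1 at -0.57, while all probes average 0.39.

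On the depleted side, 2 of 8 genes (Fcgr1 and Msr1) had a window at or below -1, against 54.1% of all genes, and 1 (Msr1) at or below -2, against 11.5%. With normexp 0 of 8 did so at -1, against 6.8% of genes. These counts are limited by coverage far upstream, where all probes averaged -0.32 from -6000 to -4000 bp. Cd68 and Mrc1 had no probes from -6000 to -2000 bp, and the first window of Itgam was centred at -1618 bp. Low windows far upstream could not be seen at these genes. Ratios below 0 mean less Flag-IP than input relative to the median probe of the array. Ratio and brightness rose together across probes (Pearson r = 0.57 on array 1 and 0.55 on array 2, over 236853 and 236732 probes that share 1 hybridisation each), and 5 of the 8 genes had a window at or above 1 with this trend removed, against 33.9% of all genes. The median input intensity was 1092 at Itgam, 934 at Cd68, 917 at Fcgr1, 802 at Mrc1, 697 at Cd14, 554 at Msr1, 541 at Marco and 531 at Cx3cr1, and 772 over all genes. Over all 27 of its probes, Cd14 thus had a lower median input than the median gene, as did Marco, Msr1 and Cx3cr1. The 10 probes of its run had inputs from 127 to 1699. These are input intensities alone, while the brightness in the trend was taken over both channels. What brightness contributes at single genes was not tested.

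A wider list of 102 other genes was set beside these 8, and 95 of them had a window. It held 76 monocyte, macrophage and myeloid genes, 70 of them with a window, and otherwise relatives and partners of the described genes. Of the 95 genes, 56 (58.9%) had a window at or above 1 and 6 (6.3%) at or above 2, where 41.8% and 2.90% of all genes did. At gene starts the picture was plainer: 6 of 92 genes (6.5%) had a mean at or above 1, below the 11.5% of all genes, and 22 of 95 (23.2%) had every tied highest window at most 500 bp from the start, below the 32.4% of all genes. Of the 6 genes at or above 2, all but Cebpa had their highest windows over 500 bp from the start. They were Clec4d, a myeloid C-type lectin receptor gene (2.91, at -1756 bp), Vsir, an immune checkpoint gene (2.30, at 535 bp), Pla2r1, a relative of the mannose receptor (2.18, at -1452 bp), Hmox1, which encodes heme oxygenase 1 (2.08, at -3099 bp), Il1b, which encodes the cytokine interleukin-1 beta (2.08, at -1943 bp), and Cebpa, a myeloid transcription factor gene (2.01, in tied windows 425 and 593 bp from the start). The lowest were Lilrb4a, an inhibitory receptor gene (-0.71, from 1 window), Chil3, a chitinase-like gene of activated macrophages (-0.48, from 5 windows), and C1qa, a complement gene (0.08).

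By role, the 70 monocyte, macrophage and myeloid genes had a median highest window of 1.12, with 44 (62.9%) at or above 1. Among them 18 (25.7%) had every tied highest window at most 500 bp from the start. Their mean near the start was at or above 1 at 6 of 67 genes (9.0%). The scavenger receptor relatives had a median highest window of 0.98 over 13 genes, 6 of them at or above 1 and 1 with every tied highest window at most 500 bp from the start. The 6 genes listed as partners of Cd14 in lipopolysaccharide sensing had a median of 1.02, from Ticam1 (0.76) to Cd180 (1.68), all below Cd14. Tlr4 and Ly96, also of lipopolysaccharide sensing but counted among the myeloid genes, had 1.30 and 1.14, likewise below Cd14. The chemokines Ccl7 and Ccl12, which act on CCR2, had 0.91 and 0.73, the chemokine Ccl8 had 0.73, and Cx3cl1, the ligand of CX3CR1, had 1.11. The integrin genes Itgad and Itgb1 had 1.19 and 1.04, below Itgam. Not all integrin genes were lower: Itgax, counted among the myeloid genes, had 1.92, close to the 1.93 of Itgam, and a run of 8 probes. Itgal, counted there too, had 1.56. Itgb2, which encodes the beta chain of Mac-1, had 0.74 in its 1 window, centred at -9733 bp and so far from the start. These lists were described by counts and medians alone, and nothing was tested.

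**Figure D4:**
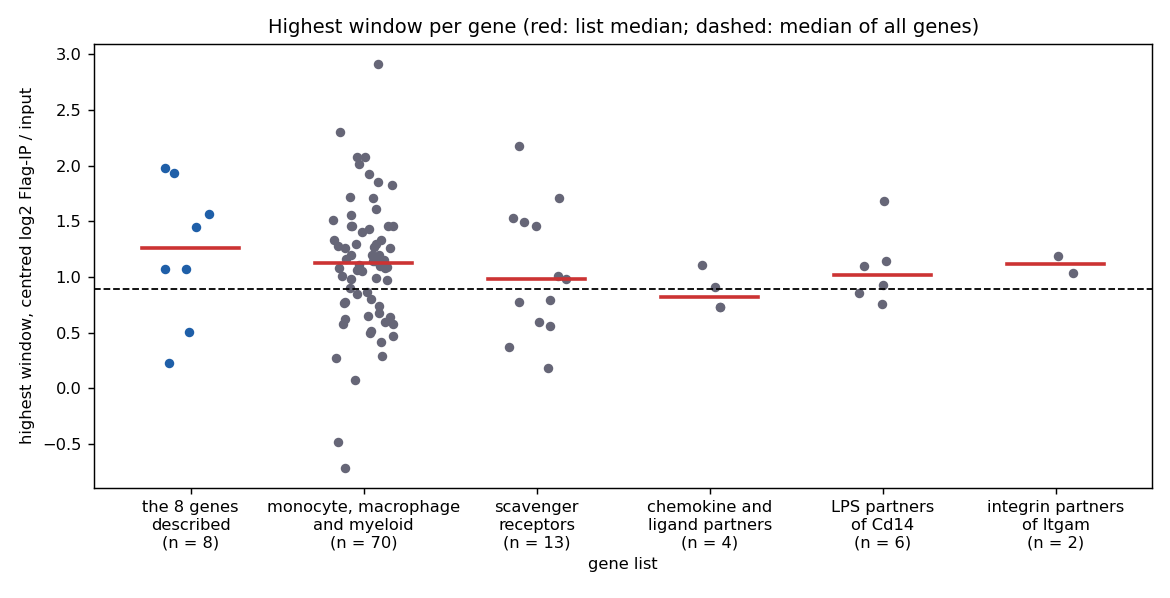
Highest 3-probe window per gene (vertical axis, centred log2 ratio of Flag-IP to input) for the 8 genes described and 5 lists of other genes (horizontal axis), with the median of each list in red and the median of all genes, 0.89, dashed. Medians run from 0.82 for the chemokine and ligand partners to 1.26 for the 8 genes, and points are spread sideways for legibility only.

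**Figure D5:**
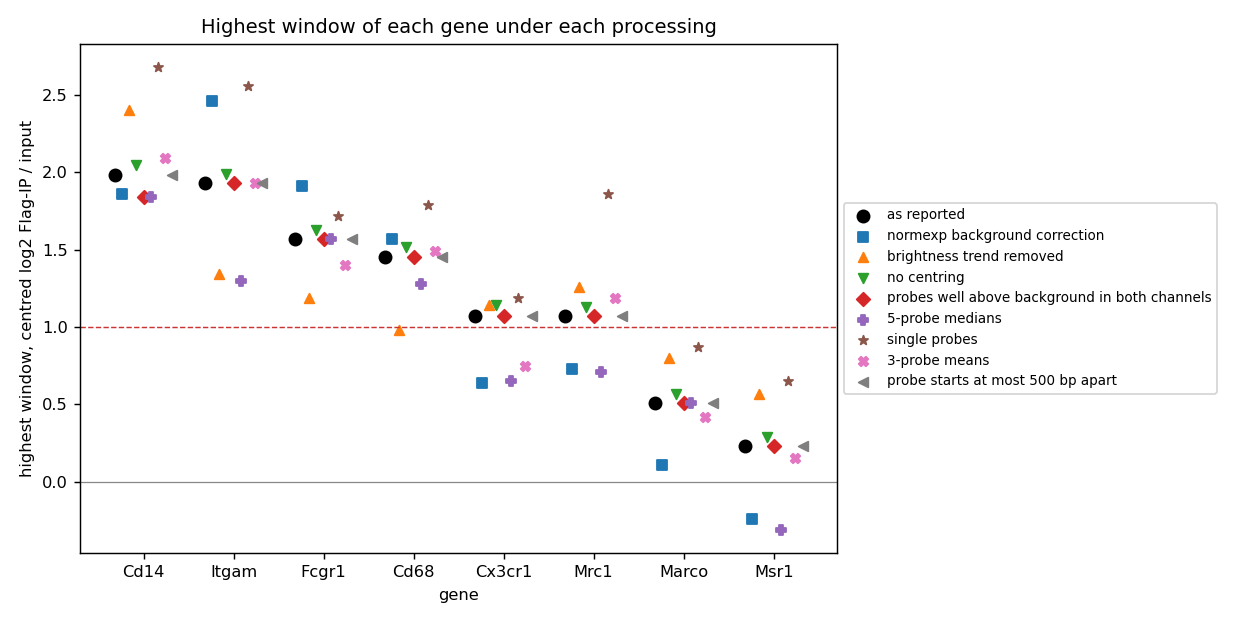
Highest window of each gene (vertical axis, log2 ratio of Flag-IP to input) under the reported processing (black circles) and 8 alternatives, by gene (horizontal axis); the dashed line marks 1. Cd14, Itgam and Fcgr1 are above 1 throughout, Cd68 falls to 0.98 with the brightness trend removed, Mrc1 and Cx3cr1 lie on both sides of 1, and Marco and Msr1 are below it throughout.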

How the data were processed

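Per the file headers, the authors' intensities came out of Agilent Feature Extraction 10.1.1.1 after background subtraction, spatial detrending and dye scaling. The deposited log10 ratios (in the scanner output and the value tables) and raw mean and background intensities served as alternatives, and the deposited error of the log10 ratio, an entry of another kind, was turned to log2. Per the labels, red is Flag-IP and green input. Log2 ratios of 237195 and 237185 probes were centred per array, without control spots, 19 and 38 outlier spots and 323 and 415 probes without a position, with no loess or quantile step. No probe was saturated, and 95.3% on each array were well above background in both channels. A window is 3 neighbouring probes with starts at most 1000 bp apart that all name the gene, placed at its middle probe. File symbols (16908) were renamed through RefSeq GRCm38.p6, 16266 by accession. Limma 3.58.1 gave normexp (offset 50). The window code was tested on simulated data. The number of arrays limits the precision. The genes and lists were chosen with earlier results of these data known. All 9 genes are named, and of others those sharing a probe with them, those of the wider list at or above 2, and its 3 highest and 3 lowest. The partner genes and Itgax, Itgal, Tlr4 and Ly96 were chosen after their values were seen. The expression arrays were not used: the tables used here do not pair their probe sets with genes.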

Additional observations from a re-analysis of the deposited data

How the results depend on the processing

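All 10 alternatives kept the count of genes at or above 1 within 1.5 times of 6 (4 to 6), but the 4 of 8 with normexp are no higher a share than the 50.4% of all genes. They kept the median highest window (0.99 to 1.75) within the spread of probes in a window, and the count of the wider list within 1.5 times of 56 (42 to 82). Of the wider list 45.2% reached 1 with 5-probe medians and 86.3% with single probes, against 26.8% and 69.3% of all genes. The count of the 8 genes at or above 2, 0 as reported, was 1 with normexp, without centring, with the brightness trend removed and with 3-probe means, and 2 with single probes. In the same order, 4.4%, 3.6%, 1.1%, 2.4% and 12.8% of all genes reached 2. The count at or below -1, 2 as reported, was 0 with normexp and 6 with single probes, where 6.8% and 83.1% of all genes were so low. Of the values of single genes, 235 were counted as kept and 21 as moved. Log2 values were set against the spread between probes. The lengths of runs are included too, and these are counts of probes to which that spread does not apply. Among the 21 is the run of Cd14, 10 probes as reported and 6 with normexp. Among the 10 alternatives, 2 use the deposited log10 ratios, in the scanner output and in the value tables. These hold the same ratio as reported and gave the same values, so they could not move, and they count among the 235. The count with a mean of at least 1 near the start, 3 as reported, was 1 with the brightness trend removed, against 4.6% of all genes. The count with every tied highest window near the start, 6 as reported, was 5 to 7, while the share of all genes ran from 27.7% to 38.0%. The causes were not tested. The median highest window of all genes, 0.89 as reported, was 1.01 with normexp and 0.82 with the brightness trend removed. It was 0.69 with 5-probe medians and 1.30 with single probes. The lowest windows, the means near the start, the treatment of ties and the runs were added as results after seeing the data. With 1 array per probe, the spread between immunoprecipitations is unknown. No paired analysis was possible because the 2 promoter arrays hold different probes and the expression arrays were not used; the other settings foreseen for expression (replicate block, scale, filter, arrays left out) were not run.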
